A study of Mus musculus with 3 samples.

Results

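The presynaptic vesicle release and recycling machinery was followed here as a list of 40 mouse genes that covers SNARE proteins, complexins, active zone scaffolds, Rab3 proteins, synapsins, vesicle membrane proteins and endocytic proteins, without the synaptotagmins. Members were found by matching the accession of each array probe to RefSeq gene symbols. Probes were named for 38 of the 40 genes, on 62 probes, while Unc13a and Sv2c had no matched probe. Of the 38, 37 genes had a probe bright enough to test, among 12721 named genes tested in all. Doc2b, a calcium-binding protein of the release machinery, was on the array but its 1 probe was not reliable on any array.

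Neurotransmitter release depends on the fusion of synaptic vesicles with the presynaptic membrane. The vesicle SNARE synaptobrevin pairs with SNAP-25 and syntaxin to drive fusion, complexins clamp and promote the assembled complex, and NSF with its SNAP adaptors takes the spent complex apart. Active zone scaffolds hold vesicles near calcium channels, synapsins tether the reserve pool, and clathrin, its adaptor AP-2, dynamin, endophilin and amphiphysin retrieve vesicle membrane after release.

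The samples were cortex from mice aged 16 weeks. The mutant animals, Gtf2i(+/Δex2), carried one Gtf2i allele named for a change in exon 2 (Δex2), whose effect on the protein was not analysed here, and the controls were WT (+/+); both genotypes shared a mixed background of 98.4% C57BL/6J and 1.6% 129Sv/CD1. Gtf2i encodes the transcription factor TFII-I. Each hybridised RNA was a pool of 3 to 5 mice of one genotype, and each of the 3 two-colour arrays set a mutant pool against a control pool, with the dyes exchanged on replicate 2. The labels do not say that the arrays used separate pools, so the p-values reflect only how far these arrays differ, which may be a technical spread. In pooled cortex RNA, fewer cells of a type and less RNA per cell cannot be told apart.

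Each ratio given is the log2 of the mutant channel over the wild-type channel. This direction is likely rather than certain: it rests on the deposited readme, which defines the ratio as test over control, on the sample titles, and on dye control spots that turned over with the dyes (median log2 ratio 4.51, -4.54 and 4.58 on replicates 1, 2 and 3). Gene spots had median intensities of 204.1 to 206.1 in every channel, and 64.4% to 69.7% of them were reliable. Gtf2i itself fell on both probes, by 0.32 and 0.47 on the log2 scale (limma adjusted p = 0.00505 and 0.00261); the former call was lost without replicate 1 (0.0559). Where those probes lie relative to that exon was not analysed here. The labelled tissue showed its neuronal markers: 11 of the 12 listed neuron markers were tested, and 10 of them lay in the brightest of 4 equal classes of tested probes by signal. That class also held 8 of 9 tested astrocyte markers, 7 of 10 oligodendrocyte markers and 4261 of the 12721 named genes. Thalamic markers stood apart on replicate 3, with a median ratio of 0.59 over 7 genes against 0.00 and 0.08 on replicates 1 and 2. Wild-type signals on replicates 1 to 3 were 1945, 2083 and 613 for Tcf7l2 and 2439, 2719 and 801 for Zic1. Their mutant signals moved less, at 2679, 3151 and 2071 and at 2511, 2890 and 2160. Ramp3 held its wild-type signal, at 1078, 1111 and 1076. Whether replicate 3 used another wild-type pool was not tested. Striatal markers also stood apart on replicate 3, with a median ratio of 0.17 against -0.20 and -0.33 over 8 genes. The part of these regional markers in the member ratios was not tested. Fallen members numbered 21 with all arrays, and 14, 17 and 21 without replicates 1, 2 and 3. Without replicate 3, Rims1 and Rab3a were lost and Vamp2 and Dnm3 gained. All called probes numbered 9333 with all arrays, and 2409, 7053 and 9885 without replicates 1, 2 and 3.

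Genes of the presynaptic machinery were mostly lower in the mutant cortex. Counting each gene by its brightest tested probe, 21 of 37 fell, 3 rose and 13 did not pass the threshold (limma adjusted p under 0.05). Calls in either direction made up 36.0% of all named genes. The falls made up 56.8% of the tested members, beside 20.0% of all named genes, and the rises 8.11%, beside 16.0%. Were the direction of the ratio turned, these falls would be rises and the rises falls, here and in every value given. The median ratio of the members was -0.22, against -0.01 for all named genes. On single arrays that median was -0.23, -0.31 and -0.15 for replicates 1, 2 and 3. Ratios lay below 0 on all 3 arrays for 23 members, beside 35.4% of all named genes, and above 0 on all 3 for 6, beside 31.2%.

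The largest falls were in the complexin gene Cplx2, the AP-2 subunit gene Ap2m1, the synaptophysin gene Syp and the vesicle glycoprotein gene Sv2a, with mutant signals at 54.3%, 57.8%, 64.9% and 67.1% of wild type. The 3 rises were Synpr, Pclo and Bin1, at 123%, 117% and 112%. Counted by probe, 33 of 57 tested probes of members were called lower and 6 higher, beside 18.9% and 15.0% of all tested probes (33.9% in either direction). Without replicate 1 these counts were 18 and 1, and all called probes numbered 2409, against 9333 with all arrays. Changes were modest in size: 7 member probes were called lower by more than 1.5-fold, from Cplx2, Ap2m1, Syp and Dnm3, and 0 were called higher by that much. Falls of over 1.5-fold made up 1.49% of all tested probes.

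Members had a median signal of 1929, against 500.5 over all named genes, and calls were more frequent among bright probes. The probe that stands for the gene lay in the brightest of the 4 signal classes for 26 of 37 members. Of these 26 genes 16 fell and 3 rose, a share of 61.5% and 11.5%, beside 25.0% and 24.4% of the 4261 named genes in that class (49.4% in either direction). Of the 11 dimmer members 5 fell and 0 rose, a share of 45.5% and 0%, beside 17.5% and 11.7% of the 8460 named genes below that class; the 5 were Doc2a, Syngr3, Rims1, Rims2 and Sncb. Members were chosen with earlier results of these arrays known, so these shares describe the list and are no independent evidence of its direction.

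**Figure D1:**
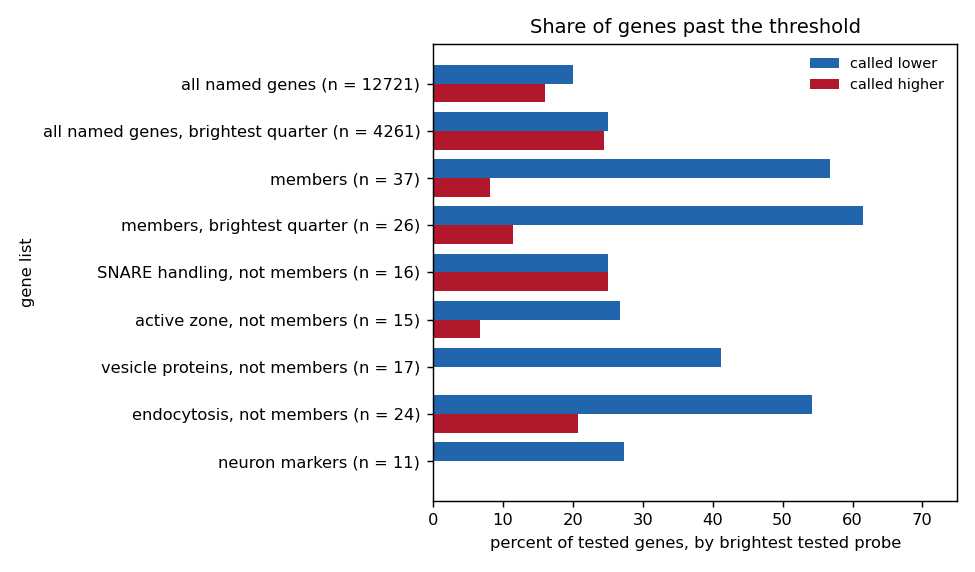
Percent of tested genes called lower (blue) and higher (red) in the mutant by limma adjusted p under 0.05, each gene counted by its brightest tested probe, for the members, the members in the brightest signal class, the other presynaptic lists, neuron markers and all named genes; n is the number of genes tested. The members stand at 56.8% lower and 8.11% higher, all named genes at 20.0% and 16.0%.

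Of 11 tested general neuron markers 3 fell and 0 rose, with a median ratio of -0.12 and array medians of -0.15, -0.12 and 0.01. By brightest probe 8 of the 11 read below 0, the lowest being Eno2, the neuronal enolase, at -0.42, and Tubb3, Thy1 and Uchl1 read above 0 and did not pass. Uchl1 had a dimmer probe that fell by 0.51 on the log2 scale. Astrocyte markers had 5 falls and 2 rises among 9, oligodendrocyte markers 3 and 1 among 10, microglia markers 4 and 0 among 6, and vessel markers 2 and 2 among 7. Over all named genes 20.0% fell and 16.0% rose, and in the brightest signal class 25.0% and 24.4%. That class held 10 of the 11 neuron markers, whose share of falls, 27.3%, was close to its own. The part of cell composition in the member ratios was not tested.

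The plot of every array shows how closely the replicates of most members lay.

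**Figure D2:**
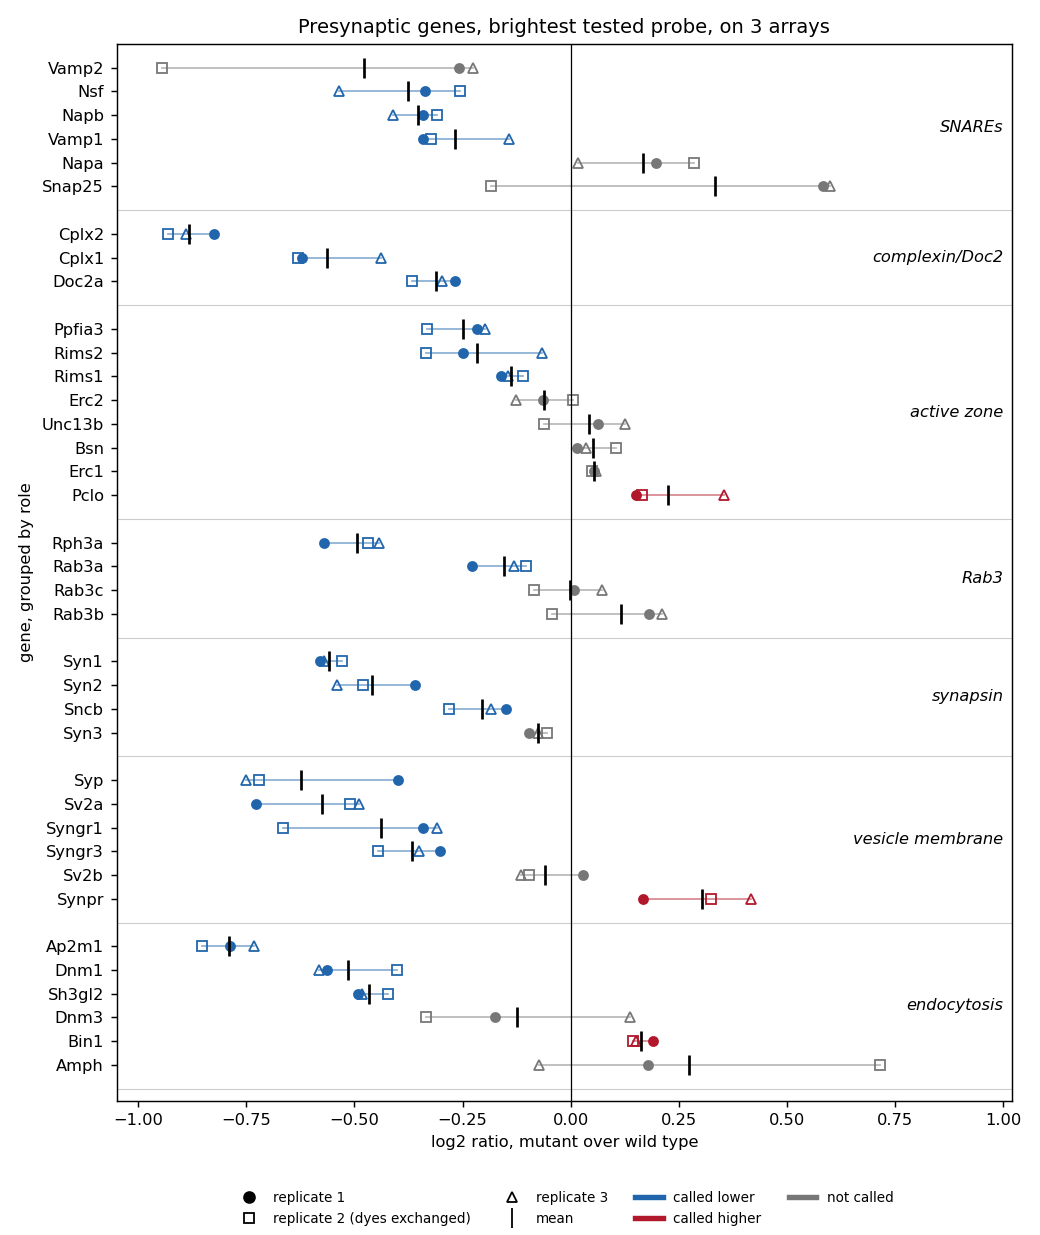
Log2 ratio of mutant over wild type (x axis) for the brightest tested probe of each of the 37 tested members (y axis, grouped by role), with replicate 1 as filled circles, replicate 2 (dyes exchanged) as open squares, replicate 3 as open triangles and a black bar for the mean; colour gives the call. The points of Cplx2, Ap2m1 and Syn1 lie close together well below 0, while Snap25, Vamp2 and Amph have replicate 2 apart from the other arrays.

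The promoters of 6 members are shown. For this choice only the pairs Vamp1 and Vamp2, Cplx1 and Cplx2, and Syngr1 and Syngr3 were compared. Among them, Cplx1 and Cplx2 are the called pair whose brightest probes differed most in mean ratio. Syp and its relative Synpr, at -0.62 and 0.30, were not among these pairs. Ap2m1, Nsf, Syn1 and Sh3gl2 are fallen members that hold a searched motif, chosen after their values were seen. Syp, which also fell and holds a searched motif, is not shown. Each is the 250 bases before the gene's start, from RefSeq on GRCm38.p6, written 5′ to 3′ on the gene's strand, with matches in capitals.
Cplx1 promoter, chr5:108550028-108550277, minus strand: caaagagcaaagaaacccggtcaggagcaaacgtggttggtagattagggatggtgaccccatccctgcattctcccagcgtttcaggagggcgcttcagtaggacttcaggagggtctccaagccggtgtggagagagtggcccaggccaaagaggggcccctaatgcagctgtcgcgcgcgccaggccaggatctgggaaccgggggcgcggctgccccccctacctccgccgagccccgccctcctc
Cplx2 promoter, chr13:54302306-54302555, plus strand: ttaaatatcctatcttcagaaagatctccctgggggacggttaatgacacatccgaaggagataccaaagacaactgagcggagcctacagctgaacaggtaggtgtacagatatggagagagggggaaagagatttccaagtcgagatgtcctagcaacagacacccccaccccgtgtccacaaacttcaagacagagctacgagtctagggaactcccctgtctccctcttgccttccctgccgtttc
Ap2m1 promoter, chr16:20535230-20535479, plus strand: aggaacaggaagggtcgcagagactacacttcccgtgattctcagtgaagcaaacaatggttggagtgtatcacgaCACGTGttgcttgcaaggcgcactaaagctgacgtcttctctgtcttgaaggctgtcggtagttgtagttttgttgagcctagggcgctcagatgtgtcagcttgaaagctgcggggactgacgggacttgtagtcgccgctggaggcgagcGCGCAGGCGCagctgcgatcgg
Nsf promoter, chr11:103954057-103954306, minus strand: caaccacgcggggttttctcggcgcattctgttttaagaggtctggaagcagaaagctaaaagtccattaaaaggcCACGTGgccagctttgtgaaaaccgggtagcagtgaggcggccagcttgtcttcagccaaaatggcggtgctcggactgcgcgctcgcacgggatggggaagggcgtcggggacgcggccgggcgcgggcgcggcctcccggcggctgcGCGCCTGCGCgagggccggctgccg
Syn1 promoter, chrX:20920919-20921168, minus strand: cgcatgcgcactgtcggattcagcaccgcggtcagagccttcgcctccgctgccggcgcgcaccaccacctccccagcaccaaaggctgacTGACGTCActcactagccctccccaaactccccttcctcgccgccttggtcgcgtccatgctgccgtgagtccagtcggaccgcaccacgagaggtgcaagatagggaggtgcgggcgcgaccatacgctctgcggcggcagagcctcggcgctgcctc
Sh3gl2 promoter, chr4:85205206-85205455, plus strand: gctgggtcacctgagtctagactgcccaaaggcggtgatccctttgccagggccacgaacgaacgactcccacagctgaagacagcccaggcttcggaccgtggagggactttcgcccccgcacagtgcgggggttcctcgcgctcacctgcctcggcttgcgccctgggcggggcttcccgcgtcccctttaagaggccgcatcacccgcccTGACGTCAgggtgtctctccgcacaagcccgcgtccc

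Motifs searched on both strands were CACGTG, the palindromic E-box, which TFII-I has been reported to bind together with USF factors; TGACGTCA, the cAMP response element; and the NRF1 core. None of these motifs contains another. RefSeq promoters were matched for 32 of the 40 members, with 40 start sites. CACGTG stood in 5 of these 40 promoters, or 12.5%, beside 6.02% of all 32851 promoters of the same length. Among the matched genes it was present for Ap2m1 and Nsf, which fell, and for Napa, Sv2b and Unc13b, whose brightest probes did not pass. The motif occurred in fallen and in uncalled members alike.

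The Ap2m1 and Nsf promoters each held CACGTG at 174 bases before the start and an NRF1 core near the start, at 22 and 25 bases. The NRF1 core was found in 5 member promoters (12.5%, beside 3.74% of all), those of Ap2m1, Nsf, Syp, Pclo and Bsn. TGACGTCA was found in 2 of 40 (5%, beside 1.55%), Syn1 at 159 bases and Sh3gl2 at 37 bases before the start, both fallen. Neither complexin promoter held any of the 3 motifs. Member promoters had a median of 14 CpG dinucleotides and 59.8% G and C, against 6 and 52.4% over all promoters. A match is a description of letters and was not tested for binding.

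Among SNARE proteins and the factors that take them apart, 3 of 6 members fell and 0 rose by their brightest probes. All 6 lay in the brightest signal class, where 25.0% of named genes fell and 24.4% rose. Over all named genes 20.0% fell and 16.0% rose, the shares to set beside each small role group here and below. Nsf, the ATPase that disassembles SNARE complexes, had ratios of -0.34, -0.26 and -0.53 on replicates 1 to 3 at its bright probe, a mean of -0.38 ± 0.14 (SD, n = 3; limma adjusted p = 0.0101). Its dimmer probe gave the same mean, -0.38 ± 0.07. Every array thus put Nsf below wild type on both probes. Napb, which encodes the brain form of the SNAP adaptor of NSF, read -0.34, -0.31 and -0.41, a fall to 78.3% of wild type. Vamp1, a vesicle SNARE, read -0.34, -0.32 and -0.14. Vamp1 lost its call without replicate 1 (limma adjusted p = 0.121) or replicate 2 (0.0634), and Nsf without replicate 1 (0.0557).

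Vamp2, the main synaptobrevin of the forebrain, was below wild type on all 3 arrays at each of its 3 probes. The brightest read -0.26, -0.95 and -0.23, so replicate 2, with the dyes exchanged, stood far below the others. Its mean of -0.48 ± 0.41 (SD, n = 3) did not pass (limma adjusted p = 0.0583), but passed without replicate 2, at -0.24 (0.0274), and without replicate 3, at -0.60 (0.0062). The dimmer probes fell by 0.19 and 0.17 on the log2 scale, calls that were lost without replicate 1 (0.171 and 0.238) or replicate 2 (0.0506 and 0.0805).

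Snap25, the plasma membrane SNARE, rose at 2 of its 3 probes. Its signals in wild type were 35995, 50742 and 41942 on replicates 1 to 3 at the brightest probe, against 53914, 44666 and 63532 in the mutant. Replicate 2 was therefore reversed, and the mean ratio of 0.33 ± 0.45 (SD, n = 3) did not pass (limma adjusted p = 0.169), though it did without replicate 2, at 0.59 (0.0153). The rising probes read, one at 0.24, 0.19 and 0.27 (limma adjusted p = 0.0104) and one at 0.27, 0.45 and 0.12 (0.0311). Both lay above 0 on all arrays. Without replicate 1 neither passed (0.0998 and 0.132), and the latter was also lost without replicate 2 (0.0754). In a fit with dye as a covariate, the brightest probes of Snap25 and Vamp2 read 0.20 and -0.59. Their ratios passed there and their dye terms did not, but neither outcome settles the disagreement. Only replicate 2 had the dyes exchanged, so the dye term takes up its whole departure and cannot be told apart from that array. The spread in that fit rests on replicates 1 and 3 alone, here and wherever dye is a covariate. Napa, the widely expressed SNAP adaptor, had probes that disagreed. The brighter read 0.20, 0.29 and 0.02 and did not pass. Under 2 of the 14 alternative settings it did, among them without replicate 3, at 0.24 (limma adjusted p = 0.00905). The other probe fell by 0.31 on the log2 scale, a call lost without replicate 1 (limma adjusted p = 0.0524).

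Cplx1, Cplx2 and Doc2a, the 3 tested members of this group, all fell; Cplx3 and Doc2g, from the other lists, read -0.01 and -0.21 at their brightest probes and did not pass. Cplx2, the complexin of excitatory forebrain neurons, had wild-type signals of 3903, 4855 and 5019 on replicates 1 to 3 and mutant signals of 2202, 2548 and 2711. On each array the mutant value lay below its wild-type partner, which held for 35.4% of all named genes. Its ratio was -0.88 ± 0.05 (SD, n = 3; limma adjusted p = 0.00196), and its other probe read -0.75 ± 0.07. Cplx1, its paralogue, read -0.62, -0.63 and -0.44, a mean of -0.56 ± 0.11 (limma adjusted p = 0.00312). Doc2a, a calcium sensor for spontaneous release, read -0.27, -0.37 and -0.30. Ratios of Cplx1 and Cplx2 come from different probes, and their difference was not tested.

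Active zone genes had the median nearest 0 of the 7 role groups, at -0.01. Of 8 tested members 3 fell and 1 rose (37.5% and 12.5%), beside 20.0% and 16.0% of all named genes. Ppfia3, a liprin-α that organises the active zone, read -0.22, -0.33 and -0.20. Rims1 and Rims2, the RIM proteins that link vesicles to calcium channels, had means of -0.14 ± 0.03 and -0.22 ± 0.14 (SD, n = 3). All 3 falls were lost without replicate 1 (limma adjusted p = 0.0806, 0.275 and 0.207). The RIM genes also lost theirs without replicate 2 (limma adjusted p = 0.0622 and 0.131), and Rims1 without replicate 3 (0.0806) or with dye as a covariate (0.0536).

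Pclo, which encodes the giant scaffold piccolo, rose, with 0.15, 0.17 and 0.35 on replicates 1 to 3 and a mean of 0.22 ± 0.11 (SD, n = 3; limma adjusted p = 0.0288). Without replicate 1 it did not pass (0.0989), nor without replicate 2 (0.0597) or with dye as a covariate (0.0553). Bassoon, its relative, read 0.05 at the Bsn probe, with an interval of -0.05 to 0.15. The priming factor gene Unc13b read 0.04, and the ELKS genes Erc1 and Erc2 read 0.05 and -0.06; these 4 genes did not pass. Their 95% intervals lay between -0.17 and 0.17. Bsn and Erc1 were among the dimmest members, with mean signals of 163 and 133, against medians of 72.3 to 81.4 at the negative control spots.

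Of the Rab3 genes and their effector, 2 of 4 fell and 0 rose, beside 20.0% and 16.0% of all named genes. Rph3a, which encodes the Rab3 effector rabphilin, read -0.57, -0.47 and -0.44 (mean -0.49 ± 0.07, SD, n = 3; limma adjusted p = 0.0029), and its dimmer probe fell by 0.20 on the log2 scale. That dimmer call was lost without replicate 1 (0.212). Rab3a, the main Rab GTPase of synaptic vesicles, read -0.23, -0.10 and -0.13, a fall to 89.9% of wild type that was lost without replicate 1, 2 or 3 (limma adjusted p = 0.310, 0.0614 and 0.0508) or with dye as a covariate (0.0638). Rab3c read -0.00 with an interval of -0.12 to 0.11. Rab3b had probes at 0.12 and -0.09, neither called; without replicate 2 the former read 0.20 and passed (0.0396).

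Synapsins, the phosphoproteins that hold vesicles in reserve, fell for Syn1 and Syn2, and Syn3 did not pass. Syn1 had wild-type signals of 13671, 16007 and 16184 on replicates 1 to 3 and mutant signals of 9151, 11095 and 10899.8 at its brightest probe. The mutant value was the lower on each array, and the ratio was -0.56 ± 0.03 (SD, n = 3, limma adjusted p = 0.00214). Its dimmer probe fell by less, 0.22 on the log2 scale, and not without replicate 1 (0.116). Syn2 read -0.36, -0.48 and -0.54. Syn3 read -0.08 and 0.03 at its 2 probes, with intervals of -0.17 to 0.02 and -0.06 to 0.12. The β-synuclein gene Sncb fell by 0.21 on the log2 scale at a dim probe, a call lost without replicate 1 (limma adjusted p = 0.0987) or replicate 2 (0.0548).

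Of the 6 tested vesicle membrane proteins 4 fell and 1 rose (66.7% and 16.7%), beside 20.0% and 16.0% of all named genes. Syp, which encodes synaptophysin, had wild-type signals of 1128, 1386 and 1652 and mutant signals of 855, 841 and 983 on replicates 1 to 3. The mutant value was the lower on each array, and the ratio was -0.62 ± 0.19 (SD, n = 3, limma adjusted p = 0.00502). Synpr, which encodes its relative synaptoporin, rose to mutant signals of 8513, 9923 and 8608 against 7587, 7921 and 6444 in wild type. Its ratios of 0.17, 0.33 and 0.42 averaged 0.30 ± 0.13 (limma adjusted p = 0.0148), and the call was lost without replicate 2 (0.0598). Sv2a, the transmembrane glycoprotein that binds levetiracetam, read -0.73, -0.51 and -0.49 at its brightest probe and -0.51 ± 0.23 at the other, whose call was lost without replicate 1 (0.0567). Sv2b read -0.06 and 0.00 at its probes and did not pass.

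The synaptogyrins, 4-pass vesicle proteins, fell at most probes. Syngr3 read -0.30, -0.45 and -0.35 at its 1 probe (mean -0.37 ± 0.07, SD, n = 3; limma adjusted p = 0.00473). Syngr1 had 3 probes, 2 lower and 1 higher. The brightest, on a transcript accession of its own, read -0.34, -0.67 and -0.31. The other pair share another accession and disagreed: one fell to 79.2% of wild type, a call lost without replicate 1 (limma adjusted p = 0.0533), and one rose to 110%. That rise was lost without replicate 1, 2 or 3 (0.341, 0.083 and 0.0522) and with dye as a covariate (0.0731). Syngr1 was the 1 member of 16 with several tested probes whose probes were called in opposite directions; among all named genes with several tested probes that share was 6.06%.

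**Figure D3:**
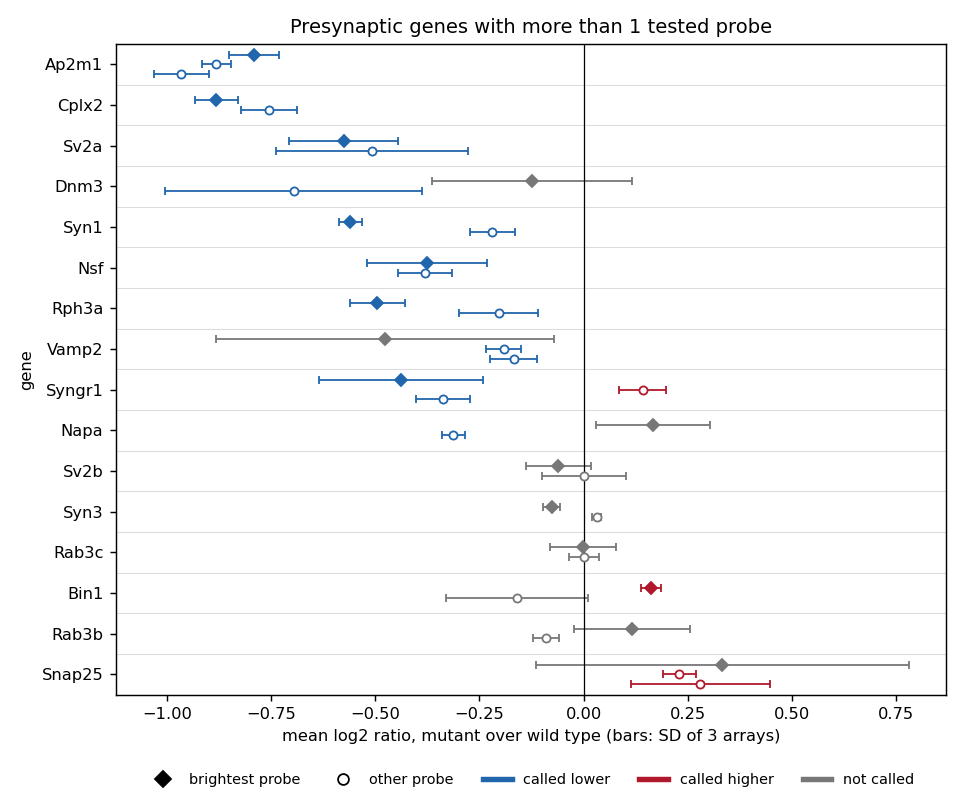
Mean log2 ratio of mutant over wild type with the SD of 3 arrays (x axis) for every tested probe of the 16 members with more than 1 tested probe (y axis); diamonds are the brightest probe of a gene, open circles the others, and colour gives the call. The probes of Ap2m1, Cplx2, Sv2a, Nsf, Syn1 and Rph3a all lie below 0 and are called lower, while those of Syngr1 and Napa lie on both sides.

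Of the 6 endocytic members 3 fell, 1 rose and 2 did not pass. All 6 lay in the brightest signal class, where 25.0% of named genes fell and 24.4% rose. Ap2m1, the μ subunit by which AP-2 reads cargo signals, fell at all 3 probes, which share 1 transcript accession. The brightest had wild-type signals of 2677, 2968 and 3341 and mutant signals of 1551, 1643 and 2011 on replicates 1 to 3. Mean ratios were -0.79 ± 0.06, -0.88 ± 0.03 and -0.97 ± 0.07 (SD, n = 3), with a limma adjusted p from 0.00178 to 0.00197. Dnm1, the neuronal dynamin, read -0.56, -0.40 and -0.58, and Sh3gl2, endophilin A1, read -0.49, -0.42 and -0.48. These genes of the fission and adaptor steps were below wild type on every array.

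Bin1, amphiphysin 2, rose at its bright probe, with 0.19, 0.14 and 0.15 (mean 0.16 ± 0.03, SD, n = 3; limma adjusted p = 0.0252), while its other probe read -0.16 and did not pass, except with dye as a covariate (-0.21; limma adjusted p = 0.0211). The rise was lost without replicate 1 (0.217) or replicate 2 (0.0528). Amph, the neuronal amphiphysin, read 0.18, 0.71 and -0.07, so the arrays differed by more than the mean of 0.27 ± 0.40. It passed without replicate 3 (0.45, limma adjusted p = 0.0101) or with dye as a covariate (0.38). For Bin1 and Amph alike, the fit with dye took its spread from replicates 1 and 3 alone. Dnm3 read -0.18, -0.33 and 0.14 at its brightest probe and -0.83, -0.92 and -0.34 at the other. Of these the dimmer fell (limma adjusted p = 0.00997, or 0.0539 without replicate 1) and the brighter did not pass. Under 2 of the 14 alternative settings the brighter did, among them without replicate 3, at -0.26 (limma adjusted p = 0.00987).

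In 6 of the 16 members with several tested probes every probe fell. These were Ap2m1, Cplx2, Sv2a, Nsf, Syn1 and Rph3a, and the other 21 tested members rest on 1 probe each. How often every probe fell among all named genes with several tested probes was not counted. Of the 24 called members, 13 kept call and direction under all 14 alternative settings of the fit. All 13 were falls: Syp, Syn1, Syn2, Cplx1, Cplx2, Rph3a, Sv2a, Syngr3, Napb, Doc2a, Dnm1, Ap2m1 and Sh3gl2. Of the 3 rises 0 did so. Without replicate 1 the count of members called higher was 1 (Synpr). Without replicate 2 all 3 rises were lost, and the count was 2 through other genes, Snap25 and Rab3b. Without replicate 3 the count was 5, the 3 rises with Napa and Amph.

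**Figure D4:**
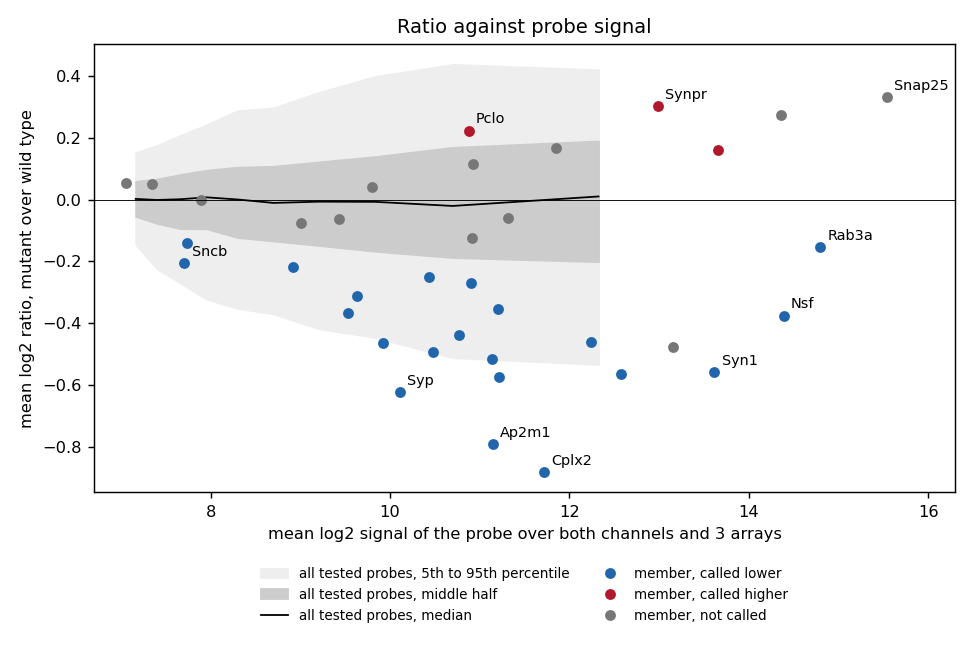
Mean log2 ratio of mutant over wild type (y axis) against the mean log2 signal of the probe (x axis) for the brightest tested probe of each member, over grey bands that give the 5th to 95th percentile and the middle of the distribution of all tested probes in 10 bins of signal, drawn up to the median signal of the last bin. Cplx2, Ap2m1 and Syp, and by less Sv2a and Sh3gl2, lie below the outer band. Of the 3 rises Pclo lies within the band, and Synpr and Bin1 lie at signals to its right. The black line is the median of all tested probes.

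Other genes of the same machinery came from 4 lists that hold no member. Of 72 tested genes 28 fell and 10 rose, 38.9% and 13.9%, beside 20.0% and 16.0% of all named genes. Without replicate 1 these counts were 9 and 4, in a fit that called 2409 probes in all, against 9333 with all arrays. The median ratio of the 72 was -0.13. Endocytic genes led, with 13 falls and 5 rises among 24 (54.2% and 20.8%). Itsn2, an intersectin scaffold, fell by 0.79 on the log2 scale. The AP-2 subunit gene Ap2a2 fell by 0.51 and Hspa8, the chaperone that uncoats clathrin, by 0.48. The other tested probe of Itsn2 read -0.04. Of the other AP-2 subunits, named here after their values were seen, Ap2a1 and Ap2b1 rose by 0.44 and 0.15 and Ap2s1 read -0.07 and did not pass. Differences between subunits were not tested.

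Vesicle proteins and transporters outside the list showed 7 falls and 0 rises among 17, or 41.2% and 0%. The shares over all named genes were 20.0% and 16.0%. Slc6a17, a vesicular amino acid transporter, read -0.47 (its other probes -0.50 and -0.07), Slc17a7, the vesicular glutamate transporter of cortex, -0.41, and Dnajc5, the chaperone CSPα, -0.40. The call of Dnajc5 was lost without replicate 1 (limma adjusted p = 0.201) or replicate 2 (0.176), where its ratios of -0.63 and -0.53 on replicates 1 and 2 stood against -0.04 on replicate 3. Other active zone and priming genes had 4 falls and 1 rise among 15 (26.7% and 6.67%), a share of falls nearer that of all named genes. Rab3ip read -0.36 and Lin7c, an adaptor of the CASK complex, 0.30. Both lost their calls without replicate 1 (limma adjusted p = 0.0577 and 0.0533). Other SNARE genes split evenly, with 4 falls and 4 rises among 16 (25% and 25%). There Vamp4, a SNARE of endosomes and bulk retrieval, rose by 0.62 ± 0.23 (SD, n = 3; limma adjusted p = 0.00696), with its other probe at 0.04, and Snap47 and Snap29 each fell by 0.41 on the log2 scale, calls lost without replicate 1 (0.0583 and 0.1003).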

How the data were processed

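Two-colour Agilent arrays of 60-mer probes were hybridised with 500 ng of amplified total RNA per colour, all with an RNA integrity number of at least 7, per the labels' protocols. The authors deposited linear intensities per spot, quantified with GenePix, background-subtracted, normalized by a method that the readme does not name, and corrected for the dye swap, per the deposited readme. A deposited log2 ratio with repeated spots collapsed served as an alternative. The authors also deposited a score per spot, a signed fold (ratios under 1 as minus their inverse), which equalled the series' deposited values at all 44290 spots of each array (medians -1.01, -1 and 1). The number of arrays limits the precision, and 0 columns of values were left unused.

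From these, log2 ratios of the 2 deposited channels were averaged over spots of one probe (41174 probes, 21445 named through RefSeq on GRCm38.p6, which served for names and promoters). Probes reliable on at least 2 arrays (foreground over 2 times background, per the readme), 27530 in all, were fitted with limma 3.58.1 (lmFit, eBayes) and no covariate (R 4.3.3; tables were read by the data.table package, 1.17.8). Benjamini-Hochberg adjustment ran over all of them, with a threshold of 0.05 and 95% intervals; the fit was tested on simulated data. Arrays correlated across probes with Pearson r of 0.625 to 0.822, a description over probes that are not replicates. The planned tests needed no further normalization, since the readme states it was done. A gene counts by its brightest tested probe. All called members, members with opposing probes and the 3 largest called changes of each pathway list were named, except 1 that is not reported here. The members and lists were chosen with earlier results of these data known. Figures used Python 3.11.15, pandas 2.3.3 and matplotlib 3.10.9.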

Additional observations from a re-analysis of the deposited data

How the results depend on the processing

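Directions of all called members were kept under the 14 alternative settings of the fit, and 0 were reversed. Each called member had ratios of one sign on all 3 arrays. Leaving out, averaging or weighting arrays therefore could not reverse its mean, so kept directions there carry no weight. Of the 24 calls, all were kept with each array centred, reliability on 3 arrays, array weights, the authors' collapsed ratio and trended robust moderation, 23 with loess, 22 with the negative controls subtracted, 21 without the filter on dim probes and 21 with dye as a covariate, 17 with replicates 1 and 2 averaged, 13 with B above 0, and 15, 16 and 22 without replicates 1, 2 and 3. Leaving out 1 array in turn, 14 to 21 members were called lower and 1 to 5 higher, 18 to 33 member probes lower and 1 to 7 higher, 2409 to 9885 probes in all, 9 to 30 other pathway genes lower and 4 to 9 higher; SNARE members called lower numbered 1 to 4, active zone members 0 to 2, and Rab3 members 1 each time. With replicates 1 and 2 averaged as 1, 1 member and 2 member probes were called higher, 5120 probes in all, and 1 active zone and 1 Rab3 member lower. With B above 0, the rule of the authors, 13 members fell and 0 rose (limma's adjusted p gave 3 rises, and an unadjusted p under 0.05 gave 4), with 19 and 0 member probes, 2661 probes in all, 10 and 3 other pathway genes, and 1 SNARE, 0 active zone and 1 Rab3 member lower. Array weights (5.843, 0.373 and 0.459 for replicates 1 to 3, so that replicate 1 dominates) raised the counts to 7 members higher, 10 member probes higher, 18617 probes and 18 other pathway genes higher. The Rab3 count was 1 with the negative controls subtracted, without the filter on dim probes and with dye as a covariate. Taking the probe with the smallest p gave 24 members lower and 4 higher, and the mean of a gene's probes 23 and 3. The cause of these shifts was not tested. No paired analysis was possible because, beyond the pairing of the genotypes that each within-array ratio already holds, the 3 arrays form 1 group with nothing left to block. Groups of 3 arrays were not searched for outliers.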
